A study of Mus musculus with 12 samples.

Results

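The comparison described here asks whether TAp73-/- mouse embryonic fibroblasts (MEFs) change their transcripts to the same extent as TAp73+/+ MEFs after 8 h at 1% oxygen. Its measure is the 8 h response of TAp73-/- cells minus the 8 h response of TAp73+/+ cells on the log2 scale, where a response is the level at 8 h minus the level of untreated cells of the same genotype. It uses 8 of the 12 arrays of the study: TAp73-/- cells at 8 h, untreated TAp73-/- cells, TAp73+/+ cells at 8 h and untreated TAp73+/+ cells, with 2 arrays in each group. The remaining 4 arrays hold cells of both genotypes at 4 h. All cells were grown in medium with serum, and untreated cells stayed at 21% oxygen. RNA was hybridised to Illumina mouse bead arrays. The 10873 genes tested were detected on both arrays of at least 1 of the 6 groups of the study. All of them enter the comparison, and 9233 of them were detected on all 8 arrays compared. A positive difference means a response that was more positive in TAp73-/- cells, through a larger rise, a smaller fall or a move in the other direction.

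When oxygen is low, the alpha subunits of hypoxia-inducible factor (HIF) escape hydroxylation by the EGLN enzymes and destruction through VHL, pair with ARNT and activate genes for glucose uptake, glycolysis, lactate export and blood vessel growth. TAp73 is the class of p73 isoforms, made from Trp73, with an intact transactivation domain, and it belongs to the same transcription factor family as p53 and p63. Fibroblasts exposed to low oxygen also adjust protein synthesis, mitochondrial activity and cell division, so genes of these processes were examined beside the HIF targets.

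Several features of the arrays bear on every value below. The labels do not say whether the 2 arrays of a group come from separate cultures. The p-values therefore measure only how far arrays differ, which may be technical, and each genotype may be a single MEF line, in which case genotype and line cannot be told apart. Of 13 fibroblast markers with a probe, 5 (Pdgfra, Thy1, Vim, Twist1 and Prrx1) were detected on all 12 arrays and 5 (Col1a1, Col1a2, Dcn, Lum and Fap) on none. The mean signal was 441 and 429 on the arrays of TAp73-/- cells at 8 h and 555 and 501 on those of untreated TAp73-/- cells, against 533 and 507 on those of TAp73+/+ cells at 8 h and 557 and 608 on those of untreated TAp73+/+ cells. A probe score, the first component of disagreement between probes of the same gene (50.2% of that variance over 4571 genes), was -0.24 and -0.09 for TAp73-/- cells at 8 h and -0.10 and -0.13 for untreated TAp73-/- cells, against 0.19 and 0.30 for TAp73+/+ cells at 8 h and 0.59 and 0.39 for untreated TAp73+/+ cells. The score was thus highest on the arrays of untreated TAp73+/+ cells, with TAp73+/+ cells at 8 h next and without a clear step between them.

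Of the 10873 genes, 52 (0.478%) had a different 8 h response in the 2 genotypes at a Benjamini-Hochberg adjusted p below 0.05 in limma. The response was more positive in TAp73-/- cells for 23 (0.212%) and more negative for 29 (0.267%), and the median difference over all genes was 0.03. The 8 h response itself was called for 2268 genes in TAp73-/- cells (20.9%, with 10.6% of all genes higher and 10.2% lower) and for 2599 in TAp73+/+ cells (23.9%, with 11.6% higher and 12.3% lower). Of the 1237 genes called in both, 1229 moved in the same direction and 8 in opposite directions (Angptl4, Asxl2, B4galt6, Cdk6, Cxcl10, Fstl1, Ypel2 and Yy2). Across all genes the responses of the 2 genotypes correlated at r = 0.69, a description over genes, which are not independent replicates.

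The 52 calls rest on few arrays and a median standard error of 0.18, so that the smallest difference called was 0.70 (Zfand2a). At an adjusted p below 0.1, 208 genes (1.91%) were called, and 1623 had an unadjusted p below 0.05. A range of response was also formed for each genotype, from the lowest 8 h array minus the highest untreated array to the highest minus the lowest. These ranges did not overlap between the genotypes for any of the 52 called genes, and they did not overlap for 3373 genes in all (31.0%). Leaving out the first or second array in turn gave 15 and 18 calls without TAp73-/- cells at 8 h, 9 and 16 without untreated TAp73-/- cells, 11 and 15 without TAp73+/+ cells at 8 h, and 35 and 24 without untreated TAp73+/+ cells. Called in each of these 8 fits were 7 of the 52 (Atf3, Cxcl10, Espn, Galr2, Ifi47, Lims2 and Unc13a). Called in none of them were 21, namely Angptl4, B4galt6, Bend3, Ccn2, D17H6S56E-5, Dusp1, Fosb, Fstl1, H2-Q8, Kctd12, Timp3 and Yy2 among those called lower, and Abhd1, Arhgap45, Bend7, H2ac7, Lox, Lrguk, Trim25, Ypel2 and Zfand2a among those called higher. When the fit included the probe score, 8 of the 52 were called (Cxcl10, Ifi47, Slc16a3, H2ac11, Galr2, Espn, Unc13a and Lims2), and none changed direction. Of these 8, Galr2, Lims2 and Unc13a were detected only in TAp73-/- cells at 4 and 8 h, and Ifi47 only in TAp73-/- cells. They passed the filter only through those groups, so keeping the call in the fits above is no separate support for them. The 2 other probes of Espn gave -0.20 and 0.01.

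**Figure D1:**
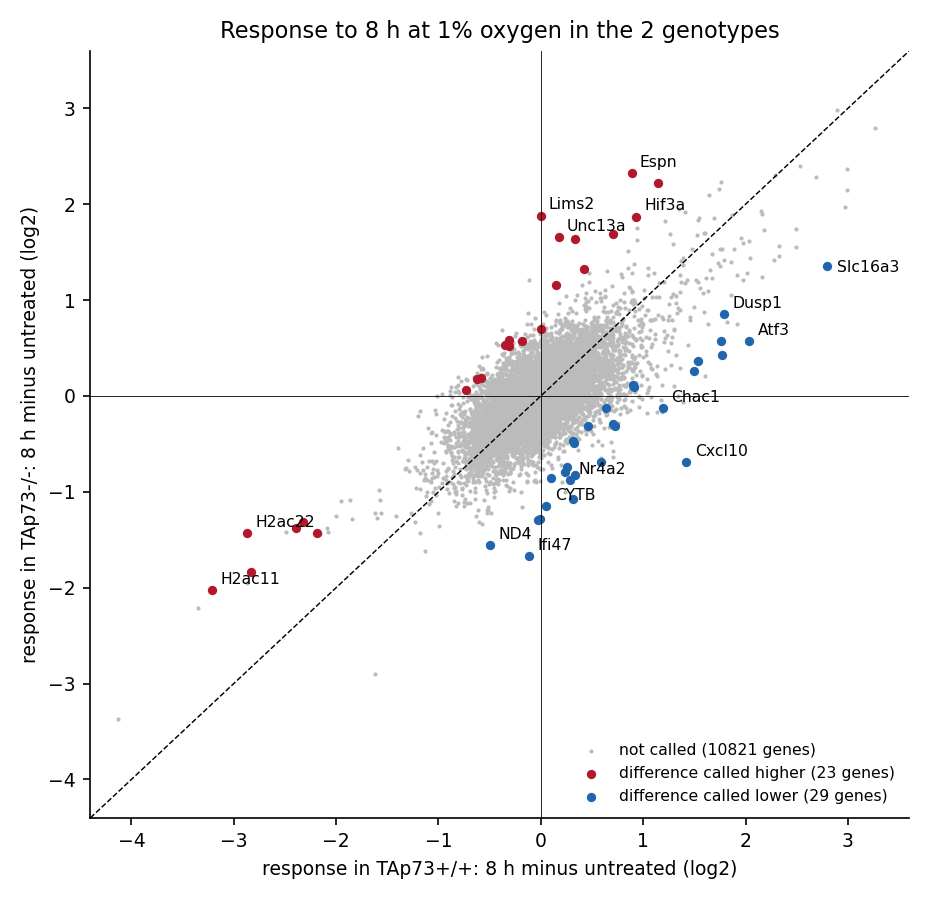
Each point is a gene, with its 8 h response in TAp73+/+ cells on the horizontal axis and in TAp73-/- cells on the vertical axis (log2, means of 2 arrays per group); the dashed line marks equal responses, red points are the 23 genes whose difference was called higher and blue points the 29 called lower. Most genes lie along the line (r = 0.69), while Cxcl10 lies far below it and Lims2 far above it.

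Among the 29 genes called lower, 9 had a smaller rise in TAp73-/- cells, 4 a larger fall and 16 a response of opposite sign in the 2 genotypes. Of those 16, only Angptl4, B4galt6, Cxcl10, Fstl1 and Yy2 passed the test in both genotypes. Among the 23 called higher, 9 had a larger rise in TAp73-/- cells, 6 a smaller fall and 8 responses of opposite sign, of which Ypel2 passed the test in both genotypes. All 6 genes with a smaller fall encode histone H2A. The classes go by the signs of the fitted responses, also where a group was below detection. Ifi44l, Ifi47 and Oas1a (larger fall), Galr2, Lox and Unc13a (larger rise), and Lims2 and Lrguk (opposite sign) were not detected in TAp73+/+ cells. For these genes the sign in TAp73+/+ cells is that of undetected signals.

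**Figure D2:**
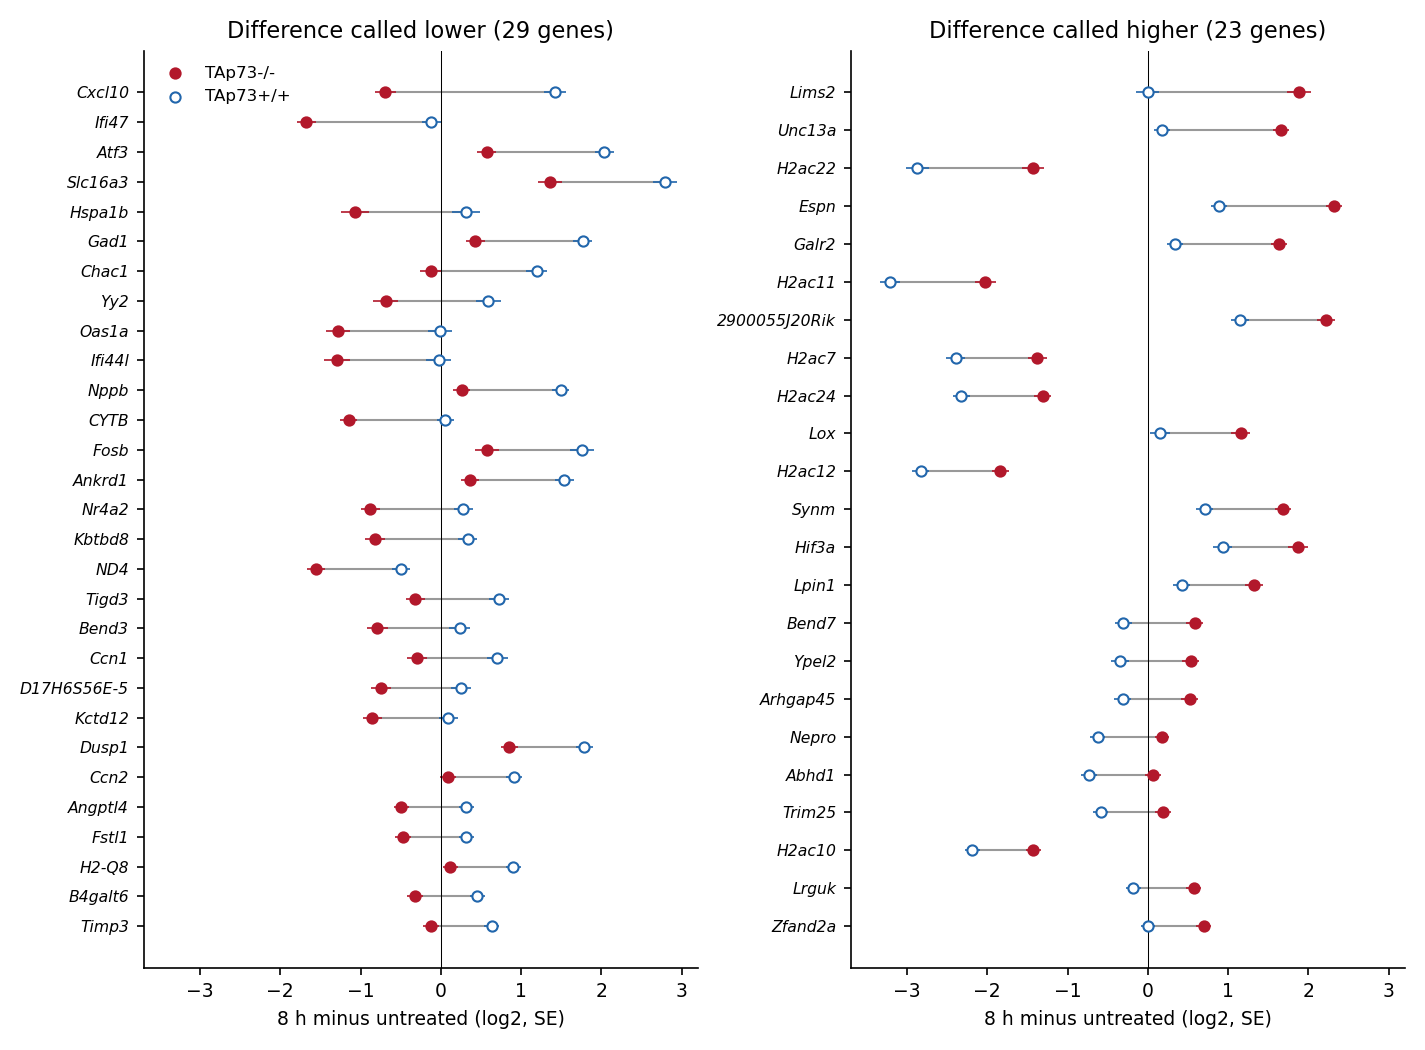
The 8 h response of each of the 52 called genes (log2, 8 h minus untreated, horizontal bars show the standard error of the fit) in TAp73-/- cells (filled red) and TAp73+/+ cells (open blue), with the genes called lower on the left and those called higher on the right, each sorted by the size of the difference. The histone H2A genes lie below 0 in both genotypes with the TAp73-/- value nearer to 0, and Cxcl10 lies on opposite sides of 0.

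The difference furthest from 0 was that of Cxcl10, the gene of an interferon-inducible chemokine that attracts T cells. Its log2 signal was 11.31 and 11.03 in TAp73-/- cells at 8 h against 11.72 and 12 untreated, and 6.83 and 6.59 in TAp73+/+ cells at 8 h against 5.27 and 5.31 untreated. The transcript thus fell in TAp73-/- cells, where it was abundant, and rose in TAp73+/+ cells, where it was scarce, and the groups did not overlap. The responses were -0.69 (adjusted p = 0.00503) and 1.42 (adjusted p = 4.42e-05), and their difference was -2.11 ± 0.19 (SE, adjusted p = 0.00276). The second Cxcl10 probe gave -1.41. Because RNA was taken from whole cultures, fewer expressing cells and less RNA per cell cannot be told apart here or below.

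Its promoter is shown because it carries the core of the interferon-stimulated response element (GAAA, any 2 bases and GAAA again, searched on both strands), in capitals, at position -213 from the transcription start. The 300 bases, from RefSeq on GRCm38.p6, are chr5:92348840-92349139 on the minus strand.
Cxcl10: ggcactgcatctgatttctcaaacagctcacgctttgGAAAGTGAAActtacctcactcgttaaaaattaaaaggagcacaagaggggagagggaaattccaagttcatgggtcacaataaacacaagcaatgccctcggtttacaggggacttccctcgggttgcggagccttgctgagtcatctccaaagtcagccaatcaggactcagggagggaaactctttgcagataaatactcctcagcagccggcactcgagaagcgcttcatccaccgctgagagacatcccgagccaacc

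Other interferon-stimulated genes fell in TAp73-/- cells without a measurable counterpart in TAp73+/+ cells. Ifi47, an interferon-induced GTPase, had log2 signals of 8.07 and 8.11 in TAp73-/- cells at 8 h against 9.79 and 9.75 untreated, and 4.42 and 4.52 in TAp73+/+ cells at 8 h against 4.56 and 4.60 untreated. It was not detected on the 4 TAp73+/+ arrays, so its difference of -1.56 ± 0.17 (adjusted p = 0.00451) reflects a fall by 1.67 in TAp73-/- cells. Against the lowest detected signals of the TAp73+/+ arrays, its level in TAp73-/- cells was at least 8.24-fold higher at 8 h and at least 26.0-fold higher untreated. Oas1a, an oligoadenylate synthetase of the RNase L pathway, had 4.99 and 5.36 in TAp73-/- cells at 8 h, detected on 1 of 2 arrays, against 6.55 and 6.36 untreated, and was not detected in TAp73+/+ cells (4.43 and 4.39 at 8 h against 4.48 and 4.36 untreated). Ifi44l, also interferon-induced, was not detected in TAp73-/- cells at 8 h, at 4.76 and 4.80, and was detected in untreated TAp73-/- cells, at 5.76 and 6.38, at least 2.07-fold higher there. It was detected at 4 h in TAp73-/- cells as well, at 5.14 and 5.13, and on no TAp73+/+ array. For a gene below detection in one genotype no response could be seen there, so Ifi47, Oas1a and Ifi44l show a fall in TAp73-/- cells and no measured comparison with TAp73+/+ cells.

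The interferon list had 60 members tested, of which 40 were detected on all 8 arrays. Called lower were 3 (Cxcl10, Ifi47 and Oas1a) and higher 1 (Trim25), together 6.67% against 0.478% of all genes. Ifi47 and Oas1a passed the filter only through TAp73-/- cells, so their calls are no support for a difference in this list. The median difference of the list was -0.17 against 0.03 over all genes. In TAp73-/- cells 21 members fell and 3 rose at 8 h (35% and 5%, against 10.2% and 10.6% of all genes), and in TAp73+/+ cells 18 fell and 6 rose (30% and 10%, against 12.3% and 11.6%). Their median level was higher in TAp73-/- cells by 2.74 at 8 h and by 2.87 untreated. Trim25, a ubiquitin ligase of the RIG-I pathway, moved the other way, with 11.81 and 11.76 in TAp73-/- cells at 8 h against 11.63 and 11.57 untreated, and 9.84 and 9.92 in TAp73+/+ cells at 8 h against 10.50 and 10.44 untreated. It fell by 0.59 in TAp73+/+ cells (adjusted p = 0.00201) and had a response of 0.19 in TAp73-/- cells that did not pass the test. H2-Q8, a class I histocompatibility gene outside the list, had 8.75 and 8.68 in TAp73-/- cells at 8 h against 8.63 and 8.57 untreated, and 6.70 and 6.71 in TAp73+/+ cells at 8 h against 5.83 and 5.78 untreated, so that its rise was seen in TAp73+/+ cells (0.90, adjusted p = 0.000115) and its difference was -0.78 ± 0.14. Related class I genes may share signal with its probe.

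Atf3 and Chac1, of the amino acid and unfolded protein stress response, had an 8 h response called lower in TAp73-/- cells, although their levels there were higher under both conditions. Atf3, a stress-induced factor of the ATF family, had log2 signals of 10.24 and 10.27 in TAp73-/- cells at 8 h against 9.66 and 9.70 untreated, and 9.88 and 9.76 in TAp73+/+ cells at 8 h against 7.70 and 7.87 untreated. Its 8 h levels lay close together in the 2 genotypes while the untreated levels differed by 1.89. The rises were 0.57 (adjusted p = 0.00658) and 2.03 (adjusted p = 1.17e-06), and the difference was -1.46 ± 0.17 (adjusted p = 0.00451). Chac1, which encodes a glutathione-degrading enzyme and is a target of ATF4, had 11.62 and 11.73 in TAp73-/- cells at 8 h against 11.96 and 11.64 untreated, and 10.05 and 10.02 in TAp73+/+ cells at 8 h against 8.69 and 9.0 untreated. It rose in TAp73+/+ cells by 1.19 (adjusted p = 0.00014), its response in TAp73-/- cells was -0.13 and did not pass the test, and the difference was -1.32 ± 0.18 (adjusted p = 0.0165).

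Both promoters are shown because each holds a C/EBP-ATF composite site (TGATGNAA), here on the strand opposite to the gene and in capitals, at position -110 in Atf3 and -193 in Chac1. The RefSeq windows on GRCm38.p6 are chr1:191183284-191183583 on the minus strand for Atf3 and chr2:119350992-119351291 on the plus strand for Chac1.
Atf3: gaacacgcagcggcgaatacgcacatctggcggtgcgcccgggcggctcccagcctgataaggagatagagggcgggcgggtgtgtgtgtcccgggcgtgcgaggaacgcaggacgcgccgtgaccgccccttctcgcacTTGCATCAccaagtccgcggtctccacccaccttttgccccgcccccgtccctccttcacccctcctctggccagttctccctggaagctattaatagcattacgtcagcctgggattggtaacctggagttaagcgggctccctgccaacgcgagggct
Chac1: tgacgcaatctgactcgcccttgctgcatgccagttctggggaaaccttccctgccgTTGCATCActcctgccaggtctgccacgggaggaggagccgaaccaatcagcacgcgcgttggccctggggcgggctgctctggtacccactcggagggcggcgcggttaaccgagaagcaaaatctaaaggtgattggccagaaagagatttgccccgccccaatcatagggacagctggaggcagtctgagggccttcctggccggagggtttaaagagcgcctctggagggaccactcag

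Of 28 immediate early genes tested, 5 (17.9%, against 0.478% of all genes) were called lower, none higher, and the median difference was -0.23. The members called were Atf3, Fosb, Nr4a2, Ccn1 and Dusp1, of which Fosb and Dusp1 lost the call whichever array was left out. Fosb, an AP-1 subunit, had 6.71 and 7.02 in TAp73-/- cells at 8 h against 6.43 and 6.14 untreated, and 8.82 and 8.61 in TAp73+/+ cells at 8 h against 7.04 and 6.87 untreated. It rose in both genotypes, by 0.58 and 1.76, and the difference was -1.18 ± 0.21 (adjusted p = 0.0415). Dusp1, a phosphatase that inactivates MAP kinases, had 12.36 and 12.35 in TAp73-/- cells at 8 h against 11.53 and 11.47 untreated, and 11.89 and 11.73 in TAp73+/+ cells at 8 h against 9.99 and 10.06 untreated. Its rises were 0.85 and 1.79, again smaller in TAp73-/- cells, with a difference of -0.94 ± 0.15 (adjusted p = 0.031).

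Nr4a2, an orphan nuclear receptor, differed from these in direction. It had 6.78 and 6.64 in TAp73-/- cells at 8 h against 7.48 and 7.69 untreated, and 6.52 and 6.55 in TAp73+/+ cells at 8 h against 6.38 and 6.12 untreated. The transcript fell by 0.88 in TAp73-/- cells (adjusted p = 0.000544), its response of 0.28 in TAp73+/+ cells did not pass the test, and the 8 h levels of the 2 genotypes were close. Ccn1, a secreted matricellular protein, rose in TAp73+/+ cells (12.07 and 11.88 at 8 h against 11.28 and 11.25 untreated, 0.71, adjusted p = 0.00317), while TAp73-/- cells had 11.83 and 11.81 at 8 h against 12.29 and 11.94 untreated, a response of -0.29 that did not pass the test. Both other Ccn1 probes gave the same sign, -1.14 and -1.29. The immediate early list kept a negative median, -0.37 to -0.14, under all alternatives run for it.

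Ankrd1, Nppb and Ccn2 were also called lower, and all rose in TAp73+/+ cells. Ankrd1, an ankyrin repeat protein of the nucleus and the sarcomere, had 13.17 and 13.19 in TAp73-/- cells at 8 h against 12.75 and 12.88 untreated, and 11.24 and 10.92 in TAp73+/+ cells at 8 h against 9.47 and 9.61 untreated. It was far more abundant in TAp73-/- cells under both conditions, and its rises were 0.36 (adjusted p = 0.0469) and 1.54 (adjusted p = 8.22e-06). The difference was -1.18 ± 0.16 (adjusted p = 0.0165), and -1.20 by its other probe. Nppb, the gene of brain natriuretic peptide, had 7.54 and 7.59 in TAp73-/- cells at 8 h against 7.37 and 7.24 untreated, and 8.36 and 8.36 in TAp73+/+ cells at 8 h against 6.75 and 6.99 untreated. It rose in TAp73+/+ cells by 1.49 and had a response of 0.26 in TAp73-/- cells that did not pass the test, a difference of -1.23 ± 0.15 (adjusted p = 0.00742). Ccn2, connective tissue growth factor, had 13.93 and 13.88 in TAp73-/- cells at 8 h against 13.86 and 13.77 untreated, and 14.30 and 14.19 in TAp73+/+ cells at 8 h against 13.35 and 13.33 untreated. Its rise of 0.91 in TAp73+/+ cells passed the test, its response of 0.09 in TAp73-/- cells did not, and its difference of -0.82 ± 0.14 was -1.06 by the other probe.

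The Ankrd1 promoter is shown because it holds 2 copies of GGAATG, the letters bound by TEAD factors, in capitals. The RefSeq window on GRCm38.p6 is chr19:36119795-36120094 on the minus strand.
Ankrd1: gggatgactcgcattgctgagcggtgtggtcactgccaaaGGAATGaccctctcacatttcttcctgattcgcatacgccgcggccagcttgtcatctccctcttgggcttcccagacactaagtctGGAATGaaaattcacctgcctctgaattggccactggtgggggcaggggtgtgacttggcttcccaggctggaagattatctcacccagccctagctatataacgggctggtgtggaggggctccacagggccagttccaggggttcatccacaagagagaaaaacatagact

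Most of the HIF target genes rose in both genotypes. The list of canonical hypoxia-inducible genes had 34 members tested. In TAp73-/- cells 28 rose and 1 fell at 8 h (82.4% and 2.94%, against 10.6% and 10.2% of all genes). In TAp73+/+ cells 28 rose and none fell (82.4% and 0%, against 11.6% and 12.3%). The median responses were 1.39 in TAp73-/- cells and 1.65 in TAp73+/+ cells. Called for a difference were 2 (5.88%, against 0.478% of all genes), both lower, and 6 of the 34 had an adjusted p below 0.1 in limma, against 1.91% of all genes. The difference was negative for 67.6% of the list, against 45.7% of all genes, and its median was -0.23. A missing call does not show that the responses were equal. Slc16a3, the monocarboxylate transporter that exports lactate, had 7.59 and 7.48 in TAp73-/- cells at 8 h against 6.26 and 6.10 untreated, and 7.83 and 8.11 in TAp73+/+ cells at 8 h against 5.40 and 4.95 untreated. It rose by 1.36 in TAp73-/- cells and by 2.80 in TAp73+/+ cells (adjusted p = 0.00019 and 6.51e-07), a difference of -1.44 ± 0.21 (adjusted p = 0.021), and it was detected on only 1 of the 2 arrays of untreated TAp73+/+ cells. Angptl4, an inhibitor of lipoprotein lipase and a HIF target, had 9.55 and 9.48 in TAp73-/- cells at 8 h against 9.96 and 10.05 untreated, and 9.26 and 9.20 in TAp73+/+ cells at 8 h against 8.90 and 8.92 untreated. It fell by 0.49 in TAp73-/- cells (adjusted p = 0.00386), rose by 0.32 in TAp73+/+ cells (adjusted p = 0.0264) and had a difference of -0.81 ± 0.13 (adjusted p = 0.027).

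Members of the list without a called difference varied in how close their responses were, and those named here other than Vegfa were chosen after their values were seen. Vegfa, the vascular endothelial growth factor, rose by 1.42 in TAp73-/- cells and by 1.79 in TAp73+/+ cells, and its difference of -0.37 ± 0.13 did not pass (adjusted p = 0.209). Hilpda, a lipid droplet protein, rose by 2.30 and 2.29, with a difference of 0.01 ± 0.12. Egln3, an oxygen-sensing hydroxylase, rose by 1.93 and 2.15 (difference -0.23 ± 0.13), and Ndrg1 by 2.40 and 2.53 (difference -0.13 ± 0.16). Bhlhe40, a transcriptional repressor of the clock and HIF pathways, stood at the positive end of the list with rises of 1.63 and 0.94 and a difference of 0.69 ± 0.13 just outside the threshold (adjusted p = 0.0556). Egln1, the main hydroxylase that marks HIF for destruction, had a difference of -1.0 ± 0.26 that did not pass (adjusted p = 0.116), with rises of 1.97 and 2.97.

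Glycolysis genes rose in both genotypes, with 20 of 22 rising in TAp73-/- cells (90.9%, against 10.6% of all genes). In TAp73+/+ cells 19 of 22 rose (86.4%, against 11.6%). The median responses were 0.64 in TAp73-/- cells and 0.89 in TAp73+/+ cells, and the median difference was -0.34. Slc16a3 was the only member called (4.55%, against 0.478% of all genes). Pgk1, phosphoglycerate kinase, had a difference of -0.57 ± 0.17 that did not pass (adjusted p = 0.161). The median stayed between -0.35 and -0.24 under the alternatives run for it. Among 39 angiogenic factors and regulators 4 were called lower (10.3%, against 0.267% of all genes) and none higher. The 4 were Ccn1, Ccn2, Angptl4 and Timp3, and the list median was -0.05. All of these but Ccn1 lost the call whichever array was left out. Timp3, an inhibitor of matrix metalloproteinases, had 8.30 and 8.27 in TAp73-/- cells at 8 h against 8.50 and 8.32 untreated, and 9.38 and 9.34 in TAp73+/+ cells at 8 h against 8.77 and 8.69 untreated. It rose in TAp73+/+ cells by 0.63, its response in TAp73-/- cells was -0.12 and did not pass the test, and both of its other probes gave the same sign (-0.62 and -0.37).

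Among 22 HIF subunits and oxygen-dependent enzymes 1 was called (4.55%, against 0.478% of all genes). It was Hif3a, which encodes a HIF alpha subunit with forms that restrain the other subunits. Its log2 signal was 8.06 and 8.02 in TAp73-/- cells at 8 h against 6.0 and 6.35 untreated, and 6.14 and 6.02 in TAp73+/+ cells at 8 h against 5.20 and 5.10 untreated. It rose in both genotypes, by 1.87 and 0.93, and the difference was 0.94 ± 0.17 (adjusted p = 0.0455). Its other probe gave 0.17. Hif1a had 6.81 and 6.53 in TAp73-/- cells at 8 h against 7.19 and 7.17 untreated, and 6.66 and 6.05 in TAp73+/+ cells at 8 h against 5.43 and 6.07 untreated by its brightest probe, and the difference of -1.11 ± 0.32 did not pass (adjusted p = 0.152). A second Hif1a probe was detected on 7 of the 12 arrays and sat near the background in untreated cells, so no difference is drawn from it. It had 5.47 and 5.75 in TAp73-/- cells at 8 h against 4.39 and 4.38 untreated, and 6.60 and 6.89 in TAp73+/+ cells at 8 h against 4.42 and 4.48 untreated. Arnt had a difference of 0.15 ± 0.18 (adjusted p = 0.756), with 3 of its 5 other probes of the same sign, and both Epas1 probes were below detection on all 12 arrays.

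**Figure D3:**
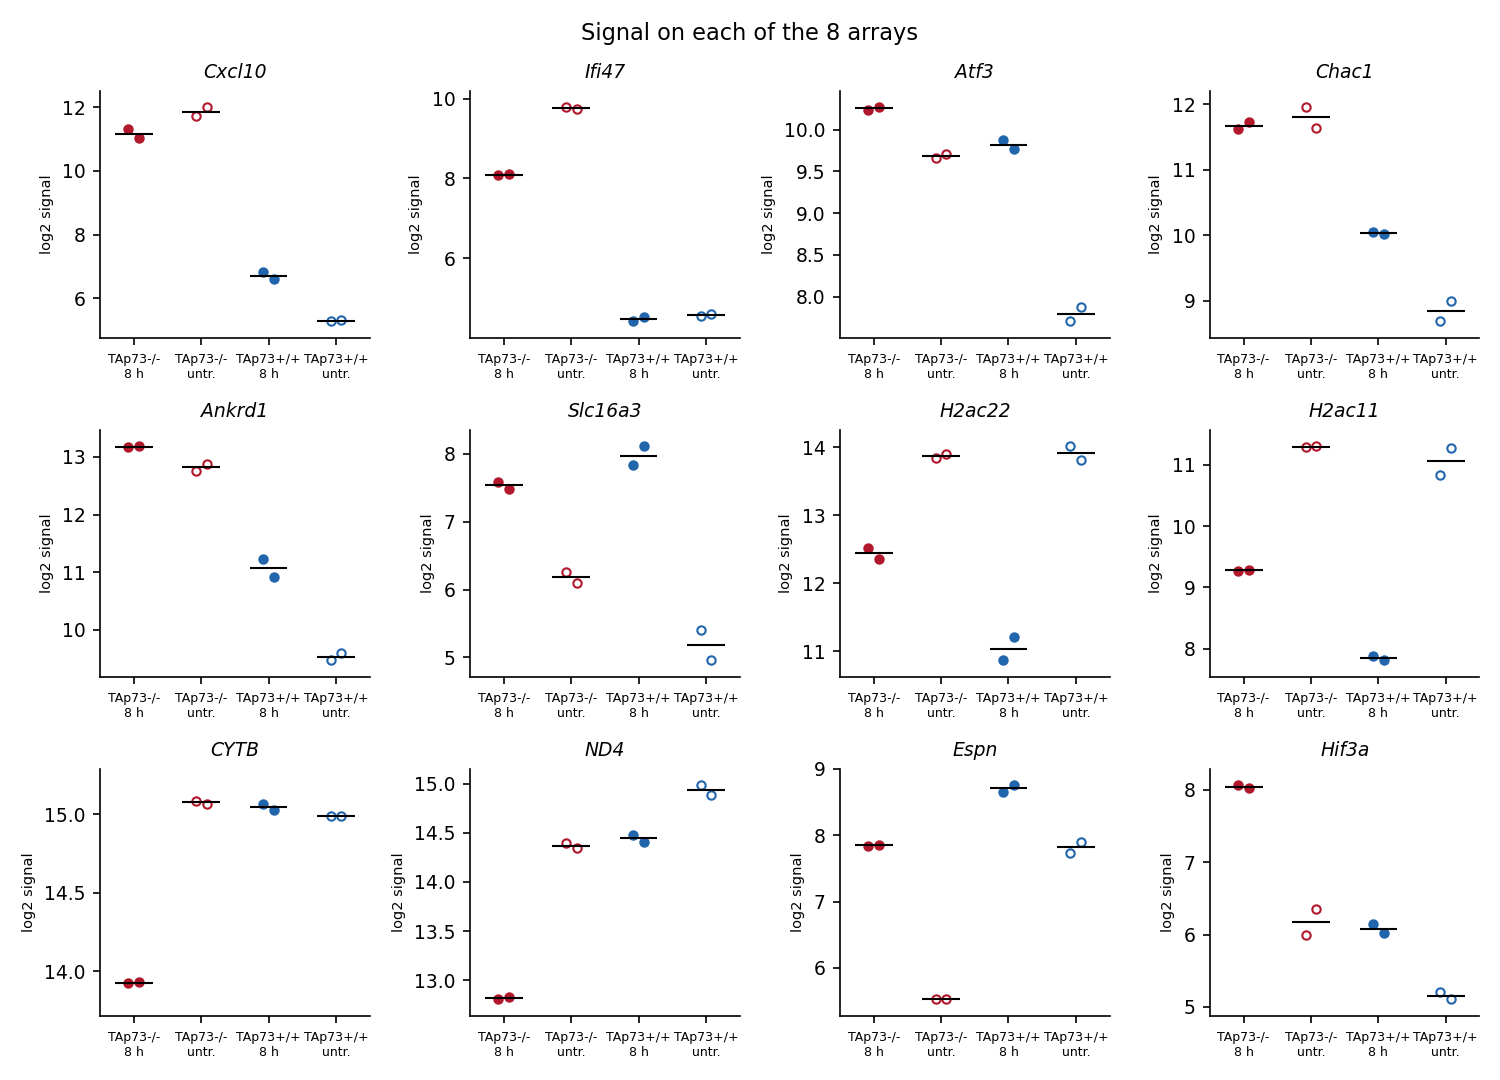
Log2 signal on each of the 8 arrays for 12 called genes, in TAp73-/- cells at 8 h and untreated (red, filled and open) and in TAp73+/+ cells at 8 h and untreated (blue, filled and open; untr. is untreated); short lines are means of 2 arrays, and the vertical scale differs between panels and does not start at 0. CYTB is near 13.9 in TAp73-/- cells at 8 h and near 15 in the other 3 groups, and H2ac22 is near 14 in untreated cells of both genotypes.

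Of the transcripts encoded by the mitochondrial genome, CYTB and ND4 had an 8 h response called lower in TAp73-/- cells. Each of the 7 tested had a negative difference, as had 45.7% of all genes. Called were 2 of them (28.6%, against 0.478% of all genes), and the median was -0.97 against 0.03 over all genes. CYTB, the cytochrome b subunit of respiratory complex III, had log2 signals of 13.92 and 13.93 in TAp73-/- cells at 8 h against 15.08 and 15.07 untreated, and 15.07 and 15.03 in TAp73+/+ cells at 8 h against 14.99 and 14.99 untreated. It fell in TAp73-/- cells by 1.15 (adjusted p = 4.84e-05), its response of 0.05 in TAp73+/+ cells did not pass the test, and the difference was -1.20 ± 0.15 (adjusted p = 0.00742). ND4, a subunit of complex I, had 12.80 and 12.83 in TAp73-/- cells at 8 h against 14.39 and 14.34 untreated, and 14.48 and 14.41 in TAp73+/+ cells at 8 h against 14.99 and 14.89 untreated. It fell in both genotypes, with responses of -1.55 and -0.49 and a difference of -1.06 ± 0.16 (adjusted p = 0.021).

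The other members of this small list had differences of -1.28 ± 0.25 (ND4L, adjusted p = 0.0563), -0.97 ± 0.20 (ND1, adjusted p = 0.0689), -0.73 ± 0.24 (ATP6), -0.70 ± 0.57 (ND5) and -0.36 ± 0.27 (COX2), and none of these passed the test. At 8 h 6 of the 7 fell in TAp73-/- cells (85.7%, against 10.2% of all genes) and 2 in TAp73+/+ cells (28.6%, against 12.3%). Mitochondrial transcripts are copied as long shared precursors, so the members are not independent of each other. The highest value that any probe takes after normalization was 15.36, and CYTB lay close to it in 3 of the 4 groups. Among nuclear genes for respiratory subunits none of 57 was called and the median was 0.05. At 8 h 1 of them rose and 1 fell in TAp73-/- cells (1.75% each, against 10.6% and 10.2% of all genes). In TAp73+/+ cells 1 rose and 6 fell (1.75% and 10.5%, against 11.6% and 12.3%), no larger shares than those of all genes. The median of the mitochondrially encoded list stayed negative under the alternatives run, from -1.13 to -0.73.

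Replication-dependent histone genes fell at 8 h in both genotypes, and the fall was smaller in TAp73-/- cells for some of those encoding histone H2A. These genes are transcribed in S phase to package new DNA, and their messages lack a poly(A) tail. Of 45 tested members of the clustered histone list, 38 fell in TAp73-/- cells (84.4%, against 10.2% of all genes). In TAp73+/+ cells 39 fell (86.7%, against 12.3%). The median responses were -0.88 in TAp73-/- cells and -1.12 in TAp73+/+ cells. The difference was positive for 36 (80%, against 54.3% of all genes), and the median was 0.40. Called higher were 4 (8.89%, against 0.212% of all genes), H2ac10, H2ac11, H2ac22 and H2ac24. Called as well were H2ac7 and H2ac12, which the list does not contain. Among all 15 tested H2ac genes, a set counted after their values were seen, 14 had a positive difference (54.3% of all genes did). Their median was 0.85.

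H2ac22 had log2 signals of 12.53 and 12.35 in TAp73-/- cells at 8 h against 13.85 and 13.90 untreated, and 10.87 and 11.21 in TAp73+/+ cells at 8 h against 14.02 and 13.81 untreated. Untreated levels overlapped between the genotypes, and the 8 h levels did not. The responses were -1.43 and -2.87, and the difference was 1.44 ± 0.20 (adjusted p = 0.0165). H2ac11 had 9.26 and 9.29 in TAp73-/- cells at 8 h against 11.29 and 11.31 untreated, and 7.88 and 7.81 in TAp73+/+ cells at 8 h against 10.84 and 11.27 untreated, with responses of -2.02 and -3.21 and a difference of 1.19 ± 0.18 (adjusted p = 0.021). The other called members, H2ac7, H2ac24, H2ac12 and H2ac10, had differences of 1.02, 1.01, 0.99 and 0.76. All 6 lie on chromosome 13, where 381 of the tested genes lie, and their coding sequences are so alike that a probe may read several of them, so the 6 calls are not 6 separate observations. In untreated cells H2ac7, H2ac10 and H2ac24 lay between 14.97 and 15.34, near the highest value of 15.36.

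The other histone classes had smaller median differences. All 9 H2bc genes had a positive difference and none was called, with a median of 0.50. The difference was positive for 5 of 9 H3c genes (median 0.05) and for 8 of 12 H4c genes (median 0.15), and none was called. Of all genes, 54.3% had a positive difference. Genes of DNA replication and mitosis had no called member of 40 and 31, with medians of -0.01 and 0.20. In the mitosis list 10 members fell and none rose in TAp73-/- cells (32.3% and 0%, against 10.2% and 10.6% of all genes). In TAp73+/+ cells 17 fell and 2 rose (54.8% and 6.45%, against 12.3% and 11.6%). The median of the histone list ranged from 0.20 to 0.68 over the alternatives, the highest being the fit that includes the probe score.

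The H2ac22 promoter is shown for its 4 CCAAT boxes (the letters CCAAT, or ATTGG on the opposite strand), in capitals, which are a common feature of histone promoters. The RefSeq window on GRCm38.p6 is chr13:21787199-21787498 on the minus strand.
H2ac22: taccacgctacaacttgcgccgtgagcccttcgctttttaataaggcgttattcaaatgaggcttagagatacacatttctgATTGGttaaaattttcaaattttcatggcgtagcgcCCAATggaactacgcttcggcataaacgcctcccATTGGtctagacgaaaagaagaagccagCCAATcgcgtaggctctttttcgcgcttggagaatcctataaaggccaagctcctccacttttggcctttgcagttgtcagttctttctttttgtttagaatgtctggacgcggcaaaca

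Several genes called higher were detected on both arrays of TAp73-/- cells at 8 h and on none of the other 6 arrays compared. Lims2, Unc13a, Galr2 and Lox were also detected on both arrays of TAp73-/- cells at 4 h. They passed the filter only through these groups, and their fitted differences rest in part on undetected signals, so the fold given as "at least" is the bound. Lims2, a focal adhesion adaptor of the PINCH family, had 6.51 and 6.49 in TAp73-/- cells at 8 h against 4.70 and 4.54 untreated, and 4.54 and 4.61 in TAp73+/+ cells at 8 h against 4.56 and 4.59 untreated. Its level in TAp73-/- cells at 8 h was at least 2.82-fold higher than untreated and at least 2.73-fold higher than in TAp73+/+ cells at 8 h, and the difference in response was 1.88 ± 0.21 (adjusted p = 0.00441). Its 2 other probes gave 0.82 and 0.95. Unc13a, which primes synaptic vesicles for release, had 6.22 and 6.40 in TAp73-/- cells at 8 h against 4.66 and 4.65 untreated, and 4.50 and 4.68 in TAp73+/+ cells at 8 h against 4.38 and 4.45 untreated, a rise of at least 2.47-fold in TAp73-/- cells (difference 1.48 ± 0.15, adjusted p = 0.00276). Galr2, a receptor for the neuropeptide galanin, had 6.16 and 6.23 in TAp73-/- cells at 8 h against 4.59 and 4.53 untreated, and 4.99 and 4.96 in TAp73+/+ cells at 8 h against 4.69 and 4.59 untreated. Its level at 8 h in TAp73-/- cells was at least 2.28-fold higher than untreated (difference 1.30 ± 0.14, adjusted p = 0.00425).

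Lox, lysyl oxidase, which crosslinks collagen and is a HIF target, had 5.75 and 5.98 in TAp73-/- cells at 8 h against 4.70 and 4.72 untreated, and 4.79 and 4.75 in TAp73+/+ cells at 8 h against 4.59 and 4.65 untreated. It was at least 1.82-fold higher at 8 h than untreated in TAp73-/- cells, was not detected in TAp73+/+ cells, and had a difference of 1.01 ± 0.17 (adjusted p = 0.0395). With Timp3 it was 1 of the 2 members called (7.69%, against 0.478% of all genes) among 26 extracellular matrix genes, whose median was -0.16. The transcript 2900055J20Rik was detected at 8 h in both genotypes and in neither untreated, at 6.99 and 7.14 in TAp73-/- cells and 5.70 and 5.87 in TAp73+/+ cells, at least 4.18-fold and at least 1.65-fold higher than untreated. Bend7 and Lrguk were also called among genes below detection in some group, and the bounds allow little to be said of them. In TAp73-/- cells at 8 h Bend7 was at least 1.34-fold and Lrguk at least 1.09-fold higher than untreated.

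Among genes detected on all 8 arrays, Espn, which encodes an actin-bundling protein, had the second highest difference after H2ac22. Its log2 signal was 7.84 and 7.85 in TAp73-/- cells at 8 h against 5.53 and 5.53 untreated, and 8.65 and 8.75 in TAp73+/+ cells at 8 h against 7.73 and 7.90 untreated. It rose by 2.32 and 0.89 and stayed lower in TAp73-/- cells under both conditions, with a difference of 1.43 ± 0.14 (adjusted p = 0.00276). Its 2 other probes disagreed, at -0.20 and 0.01. Synm, an intermediate filament protein, had 7.14 and 6.95 in TAp73-/- cells at 8 h against 5.38 and 5.34 untreated, and 7.61 and 7.60 in TAp73+/+ cells at 8 h against 6.83 and 6.96 untreated, with rises of 1.68 and 0.71 and a difference of 0.98 ± 0.15 (adjusted p = 0.021). Lpin1, a phosphatidate phosphatase of lipid synthesis, had 7.54 and 7.41 in TAp73-/- cells at 8 h against 6.11 and 6.18 untreated, and 6.15 and 6.23 in TAp73+/+ cells at 8 h against 5.68 and 5.85 untreated. Its rises were 1.32 and 0.42 and its difference was 0.90 ± 0.15 (adjusted p = 0.0392). Other probes gave smaller differences of the same sign, 0.54 and 0.19 for Synm and 0.54 for Lpin1.

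The remaining genes called higher had differences of 0.70 to 0.88. Zfand2a, a zinc finger protein induced by arsenite and proteasome stress, rose by 0.70 in TAp73-/- cells, with no called response in TAp73+/+ cells. Arhgap45 rose by 0.52 in TAp73-/- cells, and its response of -0.32 in TAp73+/+ cells did not pass the test. Ypel2 rose by 0.53 in TAp73-/- cells (adjusted p = 0.00748) and fell by 0.35 in TAp73+/+ cells (adjusted p = 0.0425). Abhd1 and Nepro fell in TAp73+/+ cells by 0.73 and 0.62 and did not pass the test in TAp73-/- cells, and each had another probe of the opposite sign.

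Of the remaining genes called lower, Hspa1b, an inducible heat shock protein of the HSP70 family, had 5.18 and 5.41 in TAp73-/- cells at 8 h against 6.28 and 6.46 untreated, and 5.49 and 6.0 in TAp73+/+ cells at 8 h against 5.28 and 5.57 untreated. It fell in TAp73-/- cells by 1.07, its difference was -1.39 ± 0.25 (adjusted p = 0.0415), and its other probe gave 0.06. Gad1, a glutamate decarboxylase that makes GABA, was detected on both arrays of TAp73+/+ cells at 8 h, at 6.29 and 6.37, and on neither untreated array, at 4.53 and 4.59, so that it was at least 2.40-fold higher at 8 h. In TAp73-/- cells it had 4.89 and 5.08 at 8 h, detected on 1 array, against 4.57 and 4.54 untreated, and the difference was -1.34 ± 0.17 (adjusted p = 0.00851). The 2 other Gad1 probes gave -0.26 and -0.79. Yy2, a zinc finger factor related to YY1, was detected in untreated TAp73-/- cells (5.24 and 5.40) and in TAp73+/+ cells at 8 h (5.27 and 5.16), and in neither TAp73-/- cells at 8 h (4.70 and 4.57) nor untreated TAp73+/+ cells (4.66 and 4.59).

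Kbtbd8, an adaptor of a cullin ubiquitin ligase, fell by 0.82 in TAp73-/- cells, with 6.23 and 6.24 at 8 h against 7.05 and 7.06 untreated, and its response of 0.33 in TAp73+/+ cells did not pass the test. Bend3 and Kctd12 likewise fell in TAp73-/- cells, by 0.79 and 0.85, with responses of 0.23 and 0.09 in TAp73+/+ cells that did not pass the test. The differences of Kbtbd8 and Kctd12 were -1.15 and -0.95, against -0.33 and -0.28 by the other probe of each. D17H6S56E-5 fell by 0.74 in TAp73-/- cells and Tigd3 rose by 0.72 in TAp73+/+ cells, each with a response in the other genotype that did not pass the test. Fstl1, a secreted glycoprotein, fell by 0.47 in TAp73-/- cells and rose by 0.32 in TAp73+/+ cells, and B4galt6, a lactosylceramide synthase, fell by 0.32 and rose by 0.46. Their differences were -0.79 ± 0.13 and -0.77 ± 0.14.

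The targeted gene, Trp73, gives no check of the genotype labels, because it is not known here whether its probe lies in the deleted part. Its log2 signal was 5.95 and 6.49 in TAp73-/- cells at 8 h against 5.29 and 4.75 untreated, and 4.86 and 4.41 in TAp73+/+ cells at 8 h against 4.72 and 4.79 untreated. It was detected on both arrays of TAp73-/- cells at 8 h, on 1 of 2 untreated, and on no TAp73+/+ array, so that its level at 8 h was at least 2.25-fold higher in TAp73-/- cells. The difference in response was 1.32 ± 0.31 and did not pass the test (adjusted p = 0.0859). Trp63 was below detection on all 12 arrays.

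Of 28 p53-family targets tested none was called, with a median of 0.13 that ranged from 8.89e-05 to 0.16 under the alternatives. At 8 h 12 rose and 1 fell in TAp73-/- cells (42.9% and 3.57%, against 10.6% and 10.2% of all genes), and 6 rose and 1 fell in TAp73+/+ cells (21.4% and 3.57%, against 11.6% and 12.3%). Whether the share differed between the genotypes was not tested. Fas, the death receptor, rose by 0.71 in TAp73-/- cells and had a response of -0.00366 in TAp73+/+ cells, and the difference of 0.71 ± 0.17 did not pass (adjusted p = 0.0859). Bbc3, which encodes the pro-apoptotic protein PUMA, rose by 0.76 in TAp73-/- cells and had a response of 0.19 in TAp73+/+ cells, with a difference of 0.57 ± 0.13 (adjusted p = 0.0783).

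Genes of the amino acid and unfolded protein stress response had 2 of 39 members called, Atf3 and Chac1 (5.13%, against 0.478% of all genes). The list median of 0.13 was of opposite sign to both. At 8 h 17 rose and none fell in TAp73-/- cells (43.6% and 0%, against 10.6% and 10.2% of all genes). In TAp73+/+ cells 14 rose and 3 fell (35.9% and 7.69%, against 11.6% and 12.3%). Inflammatory cytokines and NF-kappaB targets had none of 23 called, a median of -0.19, and 18 negative differences (78.3%, against 45.7% of all genes). Among them Il11, an interleukin of the IL-6 family, had a difference of -0.73 ± 0.19 (adjusted p = 0.125) with rises of 1.29 and 2.01, and its level was higher in TAp73-/- cells by 5.0 at 8 h and by 5.72 untreated. Csf1, the macrophage growth factor, had a difference of 0.63 ± 0.20 (adjusted p = 0.178).

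No member was called in the lists of sterol synthesis (19 genes, median 0.11), contractile genes (10, median -0.15), Hox genes (25, median -0.12), NRF2 targets (20, median -0.12), cytosolic ribosomal proteins (51, median 0.05) and housekeeping genes (12, median -0.07). In these lists the largest differences were those of Stard4 (0.60) and Pmvk (0.54) for sterols, Cald1 (-0.31) and Flna (-0.29) for contractile genes, and Hoxd13 (-0.73) and Hoxd4 (0.56). For the others they were Gstm1 (-0.50) and Nqo1 (-0.47), Rpl14 (0.85) and Rpl7a (-0.51), and Pgk1 (-0.57) and Tfrc (-0.35). In the lists of DNA replication, mitosis and nuclear respiratory subunits they were Ccne2 (-1.07) and Rpa2 (-0.82), Pttg1 (-1.27) and Ube2c (0.77), and Atp5pb (-0.50) and Ndufb2 (0.44). None of these passed the test.

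No cell type marker was called for a difference. This holds for 6 fibroblast markers tested (median -0.01), 3 endothelial (0.19), 8 epithelial (0.08), 2 macrophage and blood (-0.26), 5 skeletal muscle (0.20), 3 neural (0.11) and 4 adipocyte and chondrocyte markers (0.18). Members with the largest differences were Vim (-0.46) and Pdgfrb (0.45), Esam (0.60) and Egfl7 (-0.19), Krt19 (-0.46) and Cdh1 (0.28), Csf1r (-0.36) and Cd14 (-0.15), Tnnt1 (0.51) and Myog (-0.47), Nes (-0.45) and Nefm (0.30), and Col2a1 (0.55) and Sox9 (0.24). Of the 11 epithelial markers with a probe 6 were detected on all 12 arrays, Cdh1 and Krt19 among them, and 3 (Epcam, Krt5 and Krt14) on none. Of the 10 macrophage and blood markers with a probe, 1 (Cd14) was detected on all 12 arrays. On none were 6 of these 10, among them Ptprc, the pan-leukocyte antigen. Krt19 rose at 8 h in both genotypes, by 1.73 and 2.18.

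**Figure D4:**
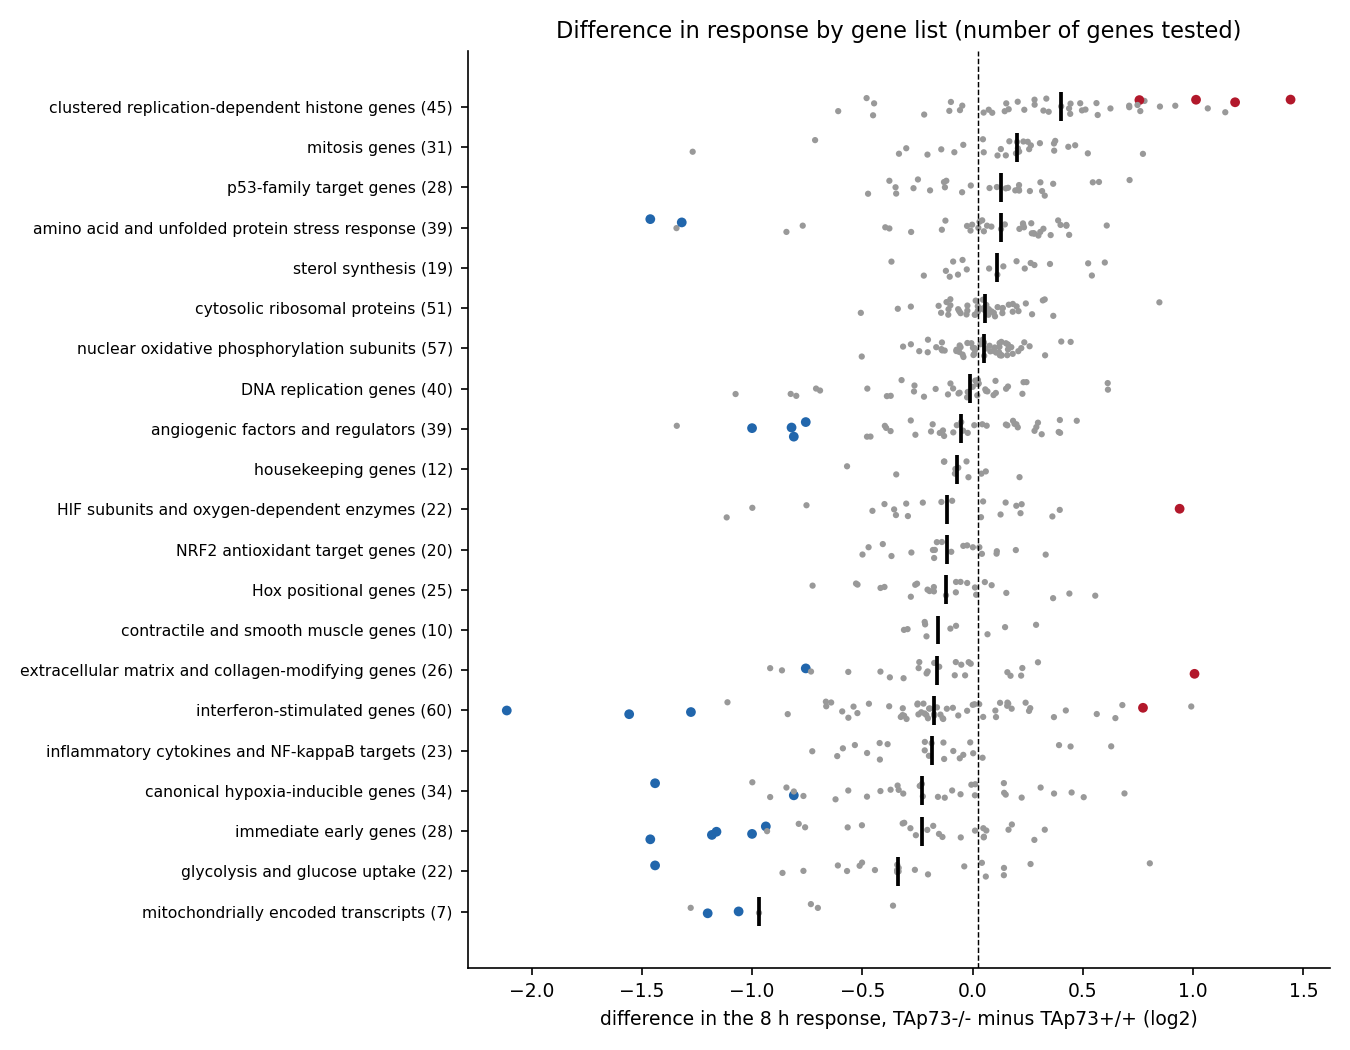
Difference in the 8 h response (log2, TAp73-/- minus TAp73+/+, horizontal axis) of every tested member of 21 gene lists, with the number tested in brackets; grey points were not called, red were called higher and blue lower, thick bars are list medians and the dashed line is the median of all genes, 0.03. The histone list has the highest median (0.40) and the mitochondrially encoded transcripts the lowest (-0.97).

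The same difference can be read as a change in the gap between genotypes, which was called for 36.3% of all genes at 8 h (18.2% higher and 18.2% lower in TAp73-/- cells) and for 38.4% untreated (20.4% lower). Among the 29 genes called lower, the gap between TAp73-/- and TAp73+/+ cells was smaller in size at 8 h than untreated for 19 and larger for 10. Untreated levels were higher in TAp73-/- cells for 25 of these 29, and a more negative response lowers such a gap. The counts therefore follow in part from the calls and are only a description. They also include genes not detected in TAp73+/+ cells. For Cxcl10 the gap was 4.46 at 8 h and 6.57 untreated, for Ankrd1 2.10 and 3.28, and for Chac1 1.64 and 2.96. For Ifi47 the fitted gap was 3.63 at 8 h and 5.18 untreated. Ifi47 was not detected in TAp73+/+ cells, so only the bounds of at least 8.24-fold and at least 26.0-fold are known. Fosb and Timp3 were lower in TAp73-/- cells under both conditions and more so at 8 h, at -1.85 against -0.67 untreated and at -1.08 against -0.32 untreated. Among the 23 genes called higher, the gap was larger at 8 h for 19 and smaller for 4. Untreated levels were higher in TAp73-/- cells for 14 of these 23, so these counts too follow in part from the calls. Espn and Synm were lower in TAp73-/- cells at 8 h, at -0.86 and -0.56, and further so untreated, at -2.29 and -1.53.

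**Figure D5:**
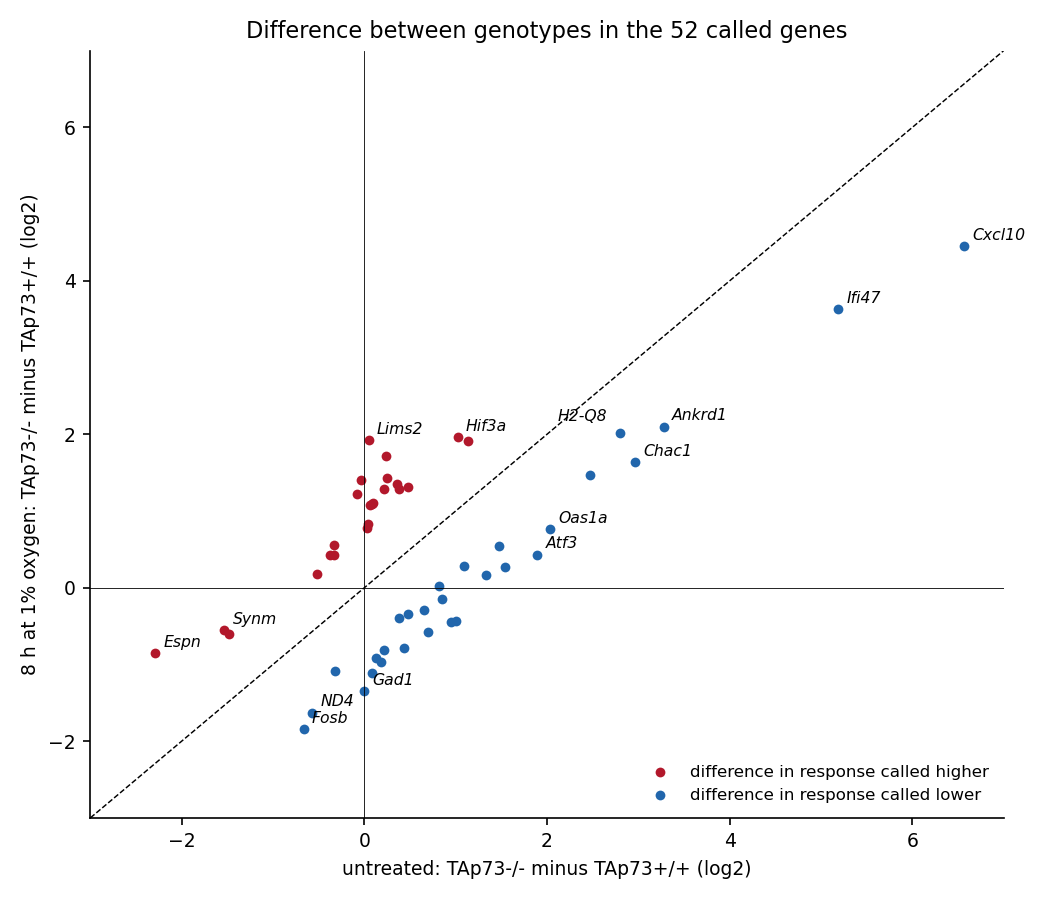
Level in TAp73-/- cells minus level in TAp73+/+ cells (log2) for the 52 called genes, untreated on the horizontal axis and at 8 h on the vertical axis; the dashed line marks equal gaps, red genes were called higher for the difference in response and blue genes lower. The distance of a point from the line is the difference in response, so the side of the line follows from the call. Cxcl10 and Ifi47 have the largest plotted gaps under both conditions, and Ifi47 was not detected in TAp73+/+ cells.

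At 4 h the same contrast uses the same 4 untreated arrays, so the values are given side by side without a count of agreement. The difference in response at 8 h and at 4 h was -2.11 and -1.56 for Cxcl10, -1.56 and -1.13 for Ifi47, -1.32 and -1.64 for Chac1, and -1.46 and -0.77 for Atf3. It was -1.20 and -0.62 for CYTB, -1.18 and -0.20 for Fosb, and -0.81 and -0.03 for Angptl4. Tigd3 had opposite signs, at -1.04 and 0.20, and the size was greater at 4 h for Hspa1b, at -1.39 and -2.01, and for Bend3, at -1.03 and -1.24. Among genes called higher it was 1.88 and 0.68 for Lims2, 1.48 and 1.02 for Unc13a, 1.43 and 0.90 for Espn, 1.44 and 0.97 for H2ac22, 1.01 and 0.31 for Lox, and 0.88 and 0.99 for Ypel2. A test of the change between 4 and 8 h called 2 genes (0.0184%), neither of which was among the 52.

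Promoter windows of 300 bases were available for 40 of the 52 called genes, 23 called lower and 17 higher, and for 8848 tested genes. The interferon-stimulated response element core was found in 3 of the 23 (Cxcl10, D17H6S56E-5 and Oas1a), in 1 of the 17 (Unc13a) and in 3.72% of the tested genes. GGAATG was found in 4 of the 23 (Ankrd1, Ccn1, Kctd12 and Nppb), in none of the 17 and in 14.4% of the tested genes, and TGATGNAA in 2 of the 23 (Atf3 and Chac1), in none of the 17 and in 2.70%. The core of the hypoxia response element, ACGTG, was found in 4 of the 23, in 6 of the 17 and in 29.9%, CCAAT in 8, in 13 and in 43.3%, and TATAAA in 6, in 4 and in 8.80%. All motifs were searched on both strands and chosen with the called genes known, and the 6 H2ac windows are related in sequence, so the counts are a description.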

How the data were processed

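The deposited tables hold bead signals as intensity values and detection p-values for 12 arrays, per the file headers, and the authors' own normalized intensity values were used as an alternative. Partek is named in the submitters' processing notes, with no version there. The labels' protocols describe Trizol and RNeasy extraction and biotin-labelled cRNA. Signals were background-corrected and quantile-normalized with neqc of limma 3.58.1 (R 4.3.3, offset 16) and taken to log2. Kept were 21223 of 45281 probes with a detection p below 0.05 on both arrays of at least 1 of 6 groups. Of these 17891 have 1 symbol, and the brightest probe stood for each of 10873 genes. Over the whole array 34885 probes have 1 symbol, 18 several and 10378 none. The 6 group means were estimated from the 12 arrays together by lmFit and eBayes (10.8 degrees of freedom), with Benjamini-Hochberg adjustment over all genes. The number of arrays limits the precision. The fit was tested on simulated data.

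The comparison, the gene lists and the motifs were chosen with earlier results of these data known. Genes named are Trp73, Trp63, Hif1a, Epas1, Arnt and Vegfa, the 12 largest called differences each way among genes detected on all 8 arrays, up to 4 each way among genes below detection in a group, and up to 4 called members each way, or the 2 largest uncalled, of each list. The remaining called genes are named so that all 52 are covered, and other genes were chosen after their values were seen. Trp53 was not analysed here. Where a group is below detection, a bound takes the lowest detected signal of its arrays. Alternatives changed normalization, filter, probe choice, arrays, variance prior, weights, thresholds and covariates, and 2 were chosen after seeing the data.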

Additional observations from a re-analysis of the deposited data

Results flagged for a closer look

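The difference in the 8 h response between the 2 genotypes was itself tested, and 52 genes passed. The response was more positive in TAp73-/- cells for 23 of them and more negative for 29. A further test asked whether the difference in response between genotypes changed between 4 and 8 h, and it called 2 genes by limma (adjusted p below 0.05). Ddit3, which encodes the stress factor CHOP, had log2 signals of 12 and 12.07 in TAp73-/- cells against 9.58 and 9.41 in TAp73+/+ cells at 8 h, and 10.46 and 10.12 against 9.29 and 9.38 at 4 h. Its change was 1.59 ± 0.19 (SE, adjusted p = 0.0311). Hspa1a, an inducible heat shock protein, had 6.22 and 6.17 in TAp73-/- cells against 7.05 and 7.05 in TAp73+/+ cells at 8 h, and 6.10 and 6.31 against 9.07 and 8.78 at 4 h, with a change of 1.86 ± 0.19 (adjusted p = 0.013). The high values of Hspa1a were those of TAp73+/+ cells at 4 h.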

How the results depend on the processing

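The count of called genes depended on the processing, while no called gene changed direction under any alternative. The authors' deposited signals and quantile normalization without background correction each gave 153 calls (64 higher, 89 lower, 42 of them among the 52), and an intensity trend with a robust prior gave 127 (46 higher, 81 lower, 44 shared). Fewer came from the 8 arrays alone (15, with 6 higher and 9 lower), from the probe score as a covariate (8, with 5 and 3, and 771 genes for the response of TAp73+/+ cells), and from an absolute difference of at least 1 (29). The mean of all probes gave 15 called higher, and an adjusted p below 0.1 gave 208 calls. With the replicate block there were 24 calls (10 higher, 14 lower), all among the 52. Deviations of same-numbered arrays correlated at -0.25 to 0.12, which cannot settle whether the numbers pair the samples, and the labels do not say. Leaving out 1 array gave 9 to 35 calls (4 to 15 higher, 5 to 20 lower; 9 to 24, 4 to 15 and 5 to 16 among those that moved by over 1.5 times), 1069 to 2535 genes for the response of TAp73-/- cells (1069 to 1394 without an array of that genotype), and 1212 to 2437 for that of TAp73+/+ cells (1212 to 1370 without one of its 8 h arrays). The lone array was assumed to vary like the other groups. The causes were not tested. Uncalled differences changed sign for Col2a1 (-0.00387 from the deposited signals and without background correction), Rpa2 (0.00195, mean of probes), Arnt (-0.12), Atp5pb (0.18) and Rpl7a (0.0051) with the probe score, and without the first array of untreated TAp73+/+ cells for Arnt, Atp5pb and Sox9, which over all 8 arrays left out ranged from -0.033 to 0.33, from -1.01 to 0.0084 and from -0.025 to 0.50. Genes near the detection limit or near the highest signal are measured least well.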
